A study of Blastobotrys raffinosifermentans with 8 samples.

Results

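The 36 putative mitochondrial genes of the yeast *Blastobotrys raffinosifermentans* LS3 are the locus tags on the array whose names begin with ARAD1M. They were selected by that name and make up 36 of the 6160 locus tags. They carry 147 of the 56312 yeast probes. The tags run from ARAD1M90010g to ARAD1M90360g, and 19 of them had a single probe while 17 had between 2 and 10. The array's design gave longer genes more probes. Neither names nor functions come with these tags in the files, so the label could not be checked against marker genes and no role is given to any tag here.

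Cells of strain LS3 were grown overnight in a minimal medium with glucose and nitrate and then moved to fresh nitrate medium with 1% glucose, or with 1% glucose and 0.5% gallic acid. Both arms therefore held glucose throughout. Cells were harvested for total RNA after 15 or 30 min and after 2 or 5 h, and each RNA was hybridised to 1 single-colour Agilent array, which gives 4 arrays in glucose and 4 with gallic acid. No harvest time had a replicate, and the labels do not say whether the arrays of an arm came from separate cultures. The p-values below therefore measure only the spread between these arrays, be it technical or a response that changed over time. The comparison addresses how gallic acid, an aromatic acid released from tannins, affected gene expression.

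Yeast mitochondrial genomes encode a small set of core subunits of the respiratory chain and of the ATP synthase, together with ribosomal and transfer RNAs for their own translation system. In *Saccharomyces cerevisiae*, a dedicated RNA polymerase transcribes this genome from several start sites into long precursors, which are then cut into separate RNAs, so that neighbouring genes often share a precursor. In that species glucose lowers the expression of many genes of the respiratory chain. This is background, and which of these genes the ARAD1M tags stand for is not known here.

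A level is the log2 intensity of a tag after background correction and quantile normalisation, taken as the median over its probes. A ratio is the level with gallic acid minus the level in glucose at the same harvest time, so a negative ratio is a lower signal with gallic acid. Where 4 values are listed, they run from the first harvest to the last. Levels of different probes are not on a common scale and are compared only within a tag. Detection differed between the arms across the whole array. Of all yeast spots, 78.6%, 72.5%, 81.9% and 58.2% stood well above background on the glucose arrays from 15 min to 5 h. On the gallic acid arrays these shares were 58.9%, 67.7%, 74.3% and 56.7%, lower at every harvest time and furthest apart at 15 min. For the members' own spots the share in glucose was 87.7%, 84%, 88.9% and 76.5%. With gallic acid it was 76.5%, 75.9%, 75.3% and 76.5%. It was thus higher in glucose at the first 3 harvest times and equal at 5 h. For the members' spots the gap between the arms was widest at 2 h, where the median ratio given below was lowest, and absent at 5 h. It was larger at 15 min than at 30 min, unlike the median ratio. The part of this gap in the ratios was not tested. All 8 arrays lay on a single slide with each arm in its own row, so arm and slide row cannot be told apart.

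Most members had a lower signal on the gallic acid array than on the glucose array at 30 min and at 2 h, and both arrays were close at 5 h. With 1 array per arm and time, words such as higher and lower describe these arrays and are not tested unless a p is given. The ratio was below 0 for 22 of 36 members at 15 min (61.1%), against 50.3% of the 6112 tested tags. It was below 0 for 35 members at 30 min (97.2%, against 53.2% of the tested tags) and for 34 at 2 h (94.4%, against 55.7%). At 5 h it was below 0 for 14 (38.9%, against 49.6%). From the first to the last harvest, the median ratio of the members was -0.12, -0.31, -0.34 and 0.05, while the medians of all tested tags lay between -0.01 and 0.00. In total RNA of a culture, fewer copies of the mitochondrial genome and less RNA per copy cannot be told apart. The primer used for labelling is not given in the sources used here. Whether these RNAs were labelled as well as other RNAs is therefore not known. The SD over the 36 members was 0.32, 0.25, 0.40 and 0.14 at the 4 times. The members were thus most spread at 2 h and closest together at 5 h.

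**Figure D1:**
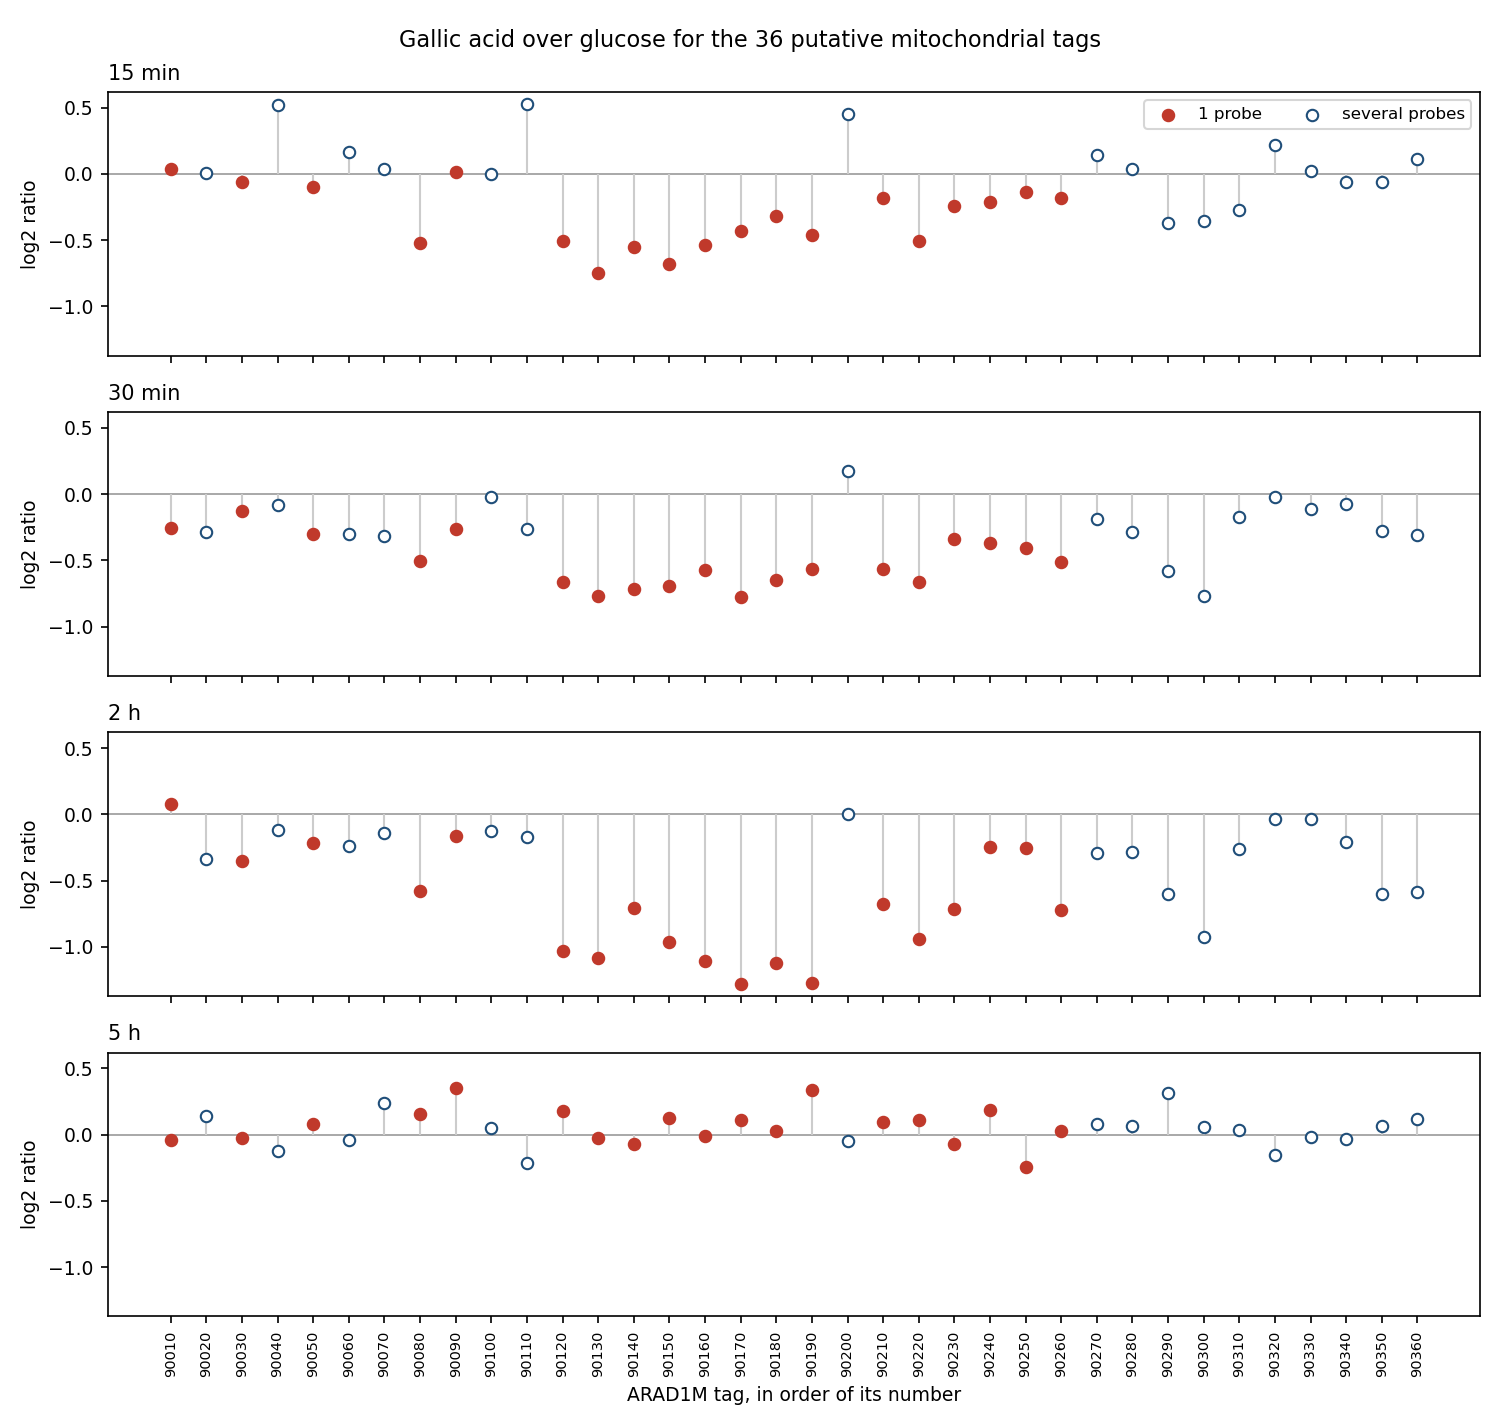
Log2 ratio of gallic acid over glucose (y axis) for the 36 ARAD1M tags in order of their number (x axis) at each harvest time, with tags of 1 probe filled and tags of several probes open. Of the 36 tags, 35 lie below 0 at 30 min and 34 at 2 h, and the lowest value is -1.28 at 2 h; at 5 h 22 lie above 0.

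Tags with a single probe were lower than the others at the first 3 harvest times. The medians of these 19 tags were -0.32, -0.56, -0.71 and 0.08, and the ratio was below 0 for 17, 19, 18 and 7 of them. The medians of the 17 tags with several probes were 0.04, -0.26, -0.24 and 0.05. Of these 17, 5 were lower and 11 higher at 15 min, while 16 were lower at 30 min and 16 at 2 h. The medians of both classes differed by -0.35, -0.30 and -0.47 at the first 3 harvest times and were close at 5 h. With only the brightest probe of each tag the difference was -0.30, -0.28 and -0.23, so the order of the harvest times was not kept. Outside the ARAD1M tags only 3 tested tags had a single probe, with median ratios of 0.24, 0.10, -0.08 and 0.12, too few for a comparison. Probe number moved with the ratio, and its part in the result was not tested.

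Large ratios were also counted, without a test. A tag counted as lower by size where its ratio was -1 or less and 80% or more of the probes were below 0, which a tag with 1 probe meets trivially. No member met this at 15 min, 30 min or 5 h, against 0.229%, 0.18% and 0.164% of the tested tags. At 2 h 6 members met it (16.7%, against 0.311% of the tested tags), all with 1 probe. These were ARAD1M90120g, ARAD1M90130g, ARAD1M90160g, ARAD1M90170g, ARAD1M90180g and ARAD1M90190g. The count depends on the processing. It was 18 with an offset of 0 in place of 50 (0.965% of the tested tags) and 12 in the table of log2 values deposited by the authors (0.54%). With the processed signal minus its 75th percentile it was 16 (3.08%).

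These tags lie in the stretch from ARAD1M90120g to ARAD1M90190g, 8 consecutive tags with 1 probe each. Over the stretch the median level in glucose was 7.75, 7.75, 8.02 and 7.34, and with gallic acid 7.22, 7.13, 6.98 and 7.42. The median ratio was -0.52, -0.68, -1.10 and 0.07, which at 2 h is a signal 2.14-fold lower with gallic acid. From 2 h to 5 h the level of every tag of the stretch went down in glucose, by 0.37 to 0.80, and up with gallic acid, by 0.26 to 0.997.

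ARAD1M90130g, the member with the lowest mean ratio, stood at 7.34, 7.48, 7.47 and 6.996 in glucose and at 6.59, 6.72, 6.38 and 6.97 with gallic acid. Its ratios were -0.75, -0.77, -1.09 and -0.02. All 4 arrays with gallic acid were below all 4 in glucose, although at 5 h the ratio was only -0.02. ARAD1M90170g had levels of 7.98, 8.15, 8.39 and 7.64 in glucose and 7.55, 7.37, 7.11 and 7.75 with gallic acid, and ratios of -0.43, -0.78, -1.28 and 0.11. Up to 2 h each glucose array was higher and each gallic acid array lower than the one before, and at 2 h the signal was 2.43-fold lower with gallic acid, the lowest ratio among the members. ARAD1M90190g, at the end of the stretch, gave 8.03, 8.35, 8.48 and 7.86 in glucose and 7.57, 7.78, 7.21 and 8.20 with gallic acid. Its ratios of -0.46, -0.56, -1.27 and 0.34 ended above glucose at 5 h, where the array with gallic acid was its highest of that arm. For ARAD1M90160g the levels were 7.73, 7.64, 7.96 and 7.33 in glucose and 7.19, 7.07, 6.86 and 7.32 with gallic acid, with ratios of -0.54, -0.57, -1.11 and -0.01. As in ARAD1M90130g, no array with gallic acid reached the lowest array in glucose.

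ARAD1M90120g opened the stretch with 7.78, 7.86, 8.14 and 7.34 in glucose and 7.27, 7.20, 7.11 and 7.52 with gallic acid, and its ratios were -0.51, -0.66, -1.03 and 0.17. ARAD1M90140g gave 7.13, 7.25, 7.22 and 6.85 in glucose and 6.58, 6.53, 6.52 and 6.78 with gallic acid, with ratios of -0.55, -0.72, -0.71 and -0.07. It was the only tag of the stretch with its lowest ratio at 30 min, and its ratio at 2 h was close to that. ARAD1M90150g gave 7.94, 7.91, 8.09 and 7.50 in glucose and 7.26, 7.22, 7.12 and 7.63 with gallic acid, with ratios of -0.68, -0.69, -0.96 and 0.13. ARAD1M90180g gave 7.21, 7.52, 7.70 and 7.15 in glucose and 6.89, 6.87, 6.58 and 7.17 with gallic acid, with ratios of -0.32, -0.65, -1.12 and 0.03. Both were lower with gallic acid on the first 3 arrays and near the glucose level at 5 h.

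**Figure D2:**
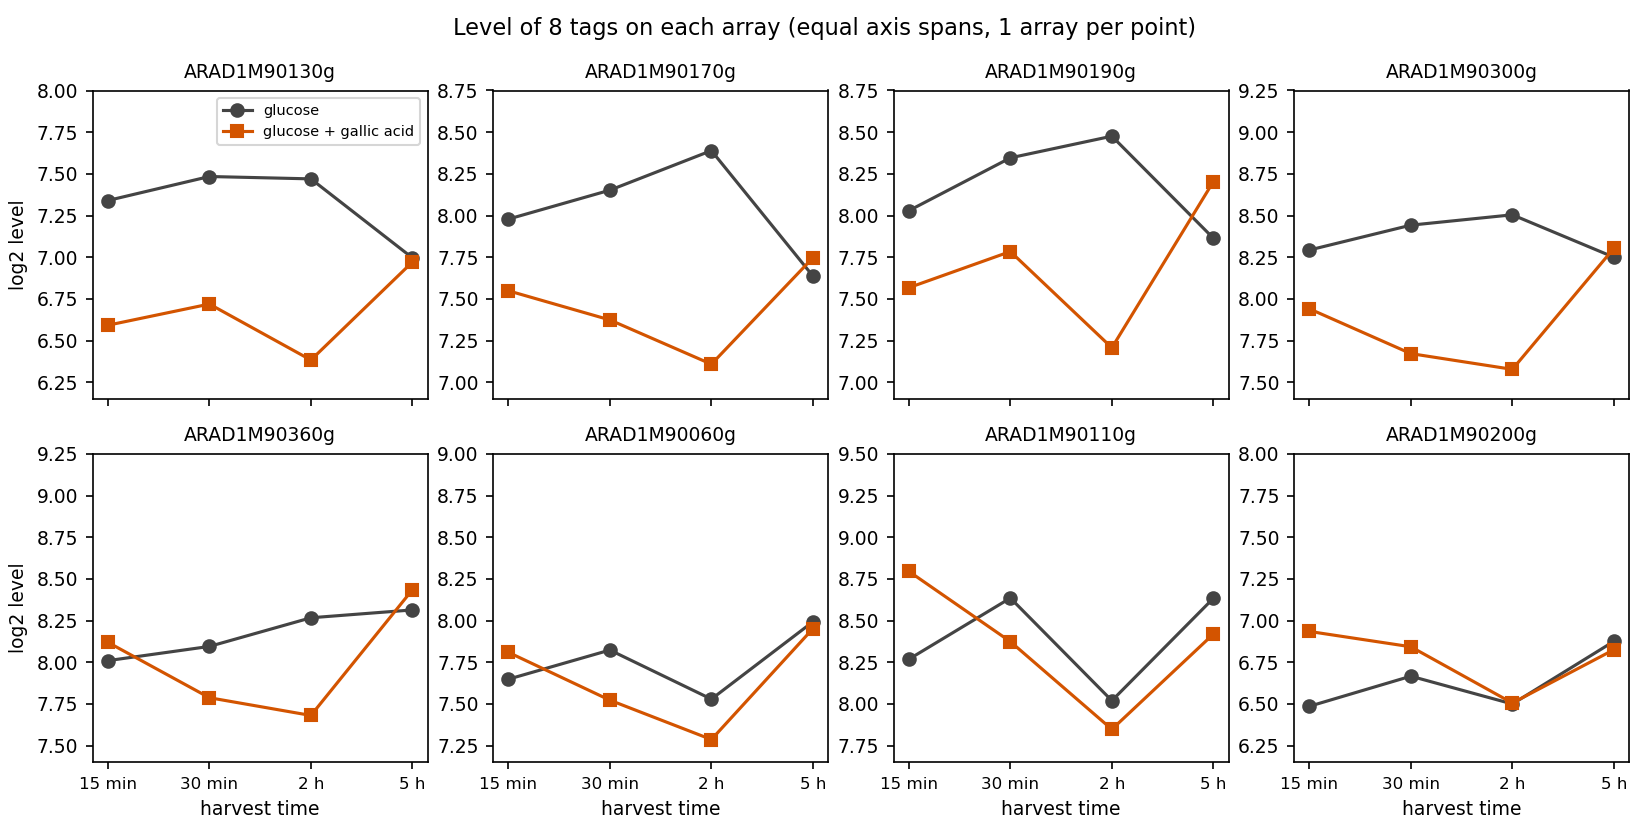
Log2 level (y axis) of 8 tags at each harvest time (x axis) in glucose (circles) and in glucose with gallic acid (squares), 1 array per point, with y axes of equal span but different start. In the upper row the gallic acid arm is lower up to 2 h and nearer to glucose at 5 h. ARAD1M90190g is then above glucose, at 8.20 against 7.86. ARAD1M90110g and ARAD1M90200g start higher with gallic acid, at 8.80 and 6.94 against 8.27 and 6.49 in glucose.

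A further set of tags, ARAD1M90210g to ARAD1M90230g, had a similar shape beyond this stretch. Their median ratio at 2 h was -0.71, nearer to 0 than the -1.10 of the stretch, but the ratios of both sets overlapped. At 2 h ARAD1M90220g was lower, at -0.94, than ARAD1M90140g of the stretch, at -0.71. ARAD1M90210g, with 1 probe, gave 6.93, 7.12, 7.11 and 6.62 in glucose and 6.75, 6.55, 6.44 and 6.71 with gallic acid, and ratios of -0.18, -0.57, -0.68 and 0.09. ARAD1M90220g gave 7.56, 7.61, 7.68 and 7.08 in glucose and 7.05, 6.95, 6.73 and 7.19 with gallic acid, with ratios of -0.51, -0.66, -0.94 and 0.11. ARAD1M90230g gave 6.91, 6.90, 6.99 and 6.67 in glucose and 6.67, 6.56, 6.27 and 6.60 with gallic acid, with ratios of -0.24, -0.34, -0.71 and -0.07. All 3 tags were lower at 5 h than at 2 h in glucose and higher at 5 h than at 2 h with gallic acid. The tags whose ratios were most like those of ARAD1M90130g were ARAD1M90150g, ARAD1M90160g and ARAD1M90220g, with root mean square differences of 0.11, 0.14 and 0.16 over the 4 harvest times.

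The next 3 single-probe tags were less alike. ARAD1M90240g gave 6.82, 6.95, 6.80 and 7.06 in glucose and 6.60, 6.58, 6.56 and 7.24 with gallic acid, so its 5 h array stood apart from the other 3 with gallic acid. Its ratios were -0.22, -0.37, -0.25 and 0.18. ARAD1M90250g gave 6.59, 6.74, 6.51 and 6.70 in glucose and 6.45, 6.34, 6.26 and 6.45 with gallic acid, with ratios of -0.14, -0.40, -0.25 and -0.24. It was lower with gallic acid at every harvest time, without overlap between the arms. ARAD1M90260g gave 6.95, 7.14, 7.11 and 6.96 in glucose and 6.76, 6.63, 6.39 and 6.99 with gallic acid, and its ratios were -0.18, -0.51, -0.72 and 0.03.

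Among the tags with several probes, ARAD1M90300g had the lowest ratios at 30 min and 2 h. Its levels were 8.29, 8.44, 8.50 and 8.25 in glucose and 7.94, 7.67, 7.58 and 8.30 with gallic acid, and its ratios -0.35, -0.77, -0.93 and 0.05. At 2 h all 10 probes were lower with gallic acid, from -1.01 to -0.04, and 8 of the 10 were above background on all 8 arrays. A signal 1.90-fold lower at 2 h was therefore also measured in a tag with many probes. Its neighbour ARAD1M90290g, with 9 probes, gave 7.15, 7.21, 7.26 and 7.15 in glucose and 6.78, 6.63, 6.66 and 7.46 with gallic acid, with ratios of -0.37, -0.58, -0.60 and 0.32 and all 9 probes lower at 2 h. The medians of its probe ratios were nearer to 0, at -0.23, -0.35, -0.51 and 0.02, because the median of 9 levels is the level of a single probe.

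ARAD1M90350g and ARAD1M90360g, with 10 probes each, closed the series of tags. ARAD1M90350g gave 6.67, 6.76, 6.81 and 6.54 in glucose and 6.60, 6.48, 6.21 and 6.60 with gallic acid, with ratios of -0.06, -0.28, -0.60 and 0.06. ARAD1M90360g gave 8.01, 8.10, 8.27 and 8.31 in glucose and 8.12, 7.79, 7.68 and 8.44 with gallic acid, with ratios of 0.11, -0.31, -0.59 and 0.12. All 10 probes of each tag were lower at 2 h, with medians over the probes of -0.59 and -0.37. The tag ratio of -0.59 for ARAD1M90360g is larger in size than the median of its probe ratios because it is the difference between median levels. The levels with gallic acid of both tags were lowest at 2 h, and that of ARAD1M90360g was highest at 5 h.

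A contrasting set was higher with gallic acid at 15 min. ARAD1M90040g, with 10 probes, gave 6.95, 7.36, 6.998 and 7.42 in glucose and 7.47, 7.27, 6.88 and 7.30 with gallic acid, and ratios of 0.52, -0.08, -0.12 and -0.12. All 10 probes were higher at 15 min, with a median of 0.48. ARAD1M90110g, with 10 probes, gave 8.27, 8.64, 8.02 and 8.63 in glucose and 8.80, 8.37, 7.85 and 8.42 with gallic acid, and ratios of 0.53, -0.26, -0.17 and -0.21. Its probes were less uniform at 15 min, with a median of 0.26 and 8 of 10 higher. ARAD1M90200g, with 10 probes, gave 6.49, 6.67, 6.50 and 6.88 in glucose and 6.94, 6.84, 6.51 and 6.83 with gallic acid, and ratios of 0.45, 0.18, 0.01 and -0.05, with all 10 probes higher at 15 min and a median of 0.38. ARAD1M90200g was the only member above glucose at 30 min and had the highest mean ratio of all members, 0.15. This mean was 0.04 without the arrays at 15 min and 0.0085 with only the brightest probe of each tag, where ARAD1M90040g, at 0.12, was higher. The arms of these 3 tags were close from 2 h on, with ratios between -0.21 and 0.01. In both arms their levels were higher at 5 h than at 2 h, by 0.38 to 0.61 in glucose and by 0.32 to 0.57 with gallic acid.

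**Figure D3:**
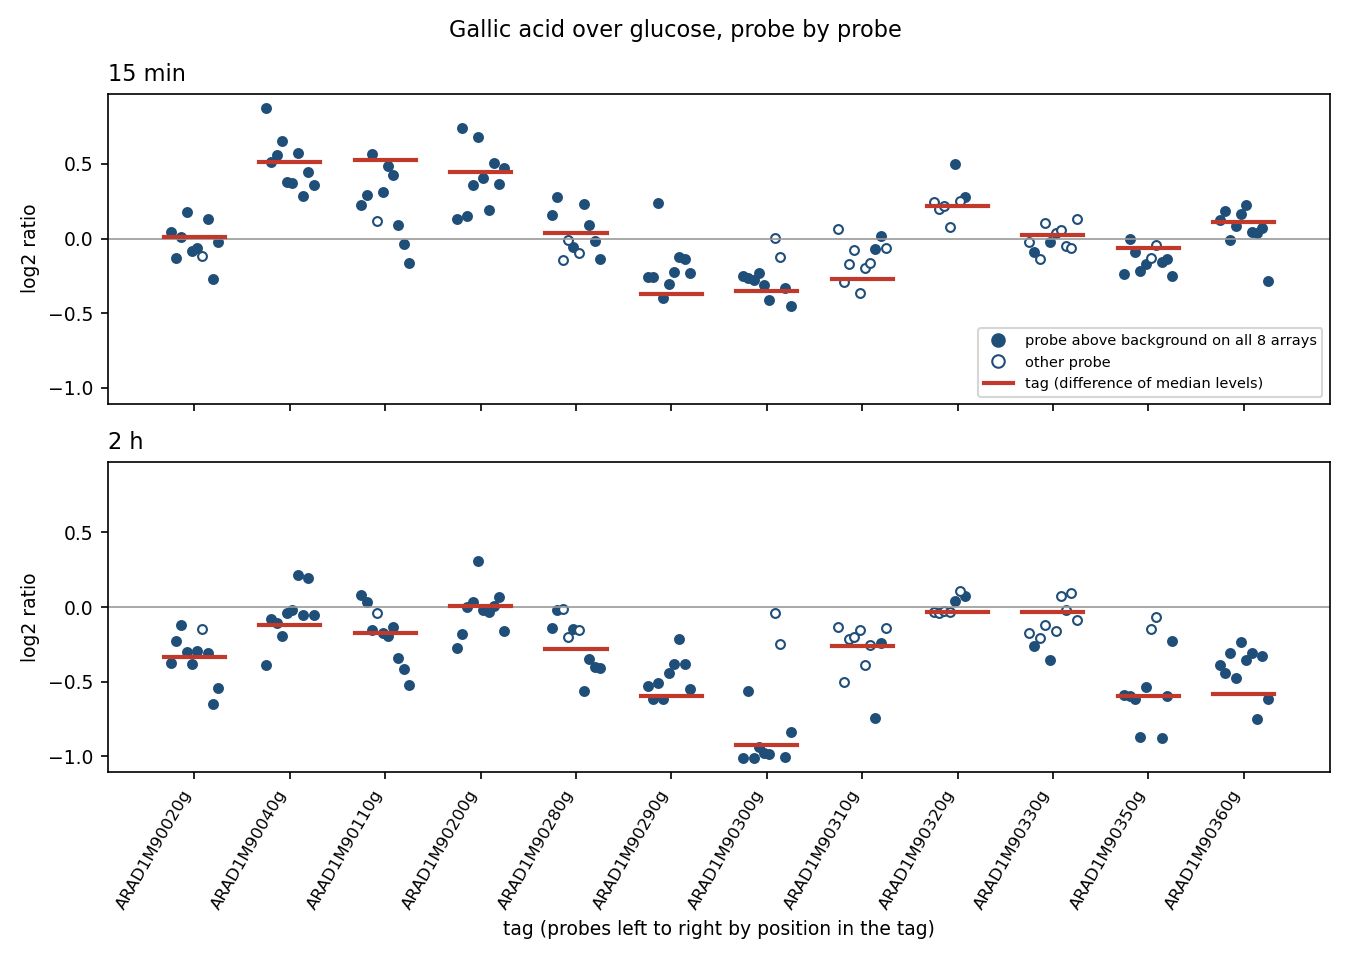
Log2 ratio of gallic acid over glucose (y axis) for each probe of the 12 tags with 7 or more probes (x axis) at 15 min and 2 h, with filled points for probes above background on all 8 arrays and a bar for the tag's ratio. All 10 probes of ARAD1M90040g and ARAD1M90200g lie above 0 at 15 min, and all 10 probes of ARAD1M90300g lie below 0 at 2 h.

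Counted by probe, the tags with several probes were again mostly lower at 30 min and 2 h, but not at 15 min or 5 h. Of their 128 probes, 61 were lower with gallic acid at 15 min, and then 106, 113 and 65 at the later harvests, with medians of 0.01, -0.17, -0.22 and -0.01. The excess of higher tags at 15 min and at 5 h was thus not seen by probe. Of the 92 probes above background on all 8 arrays, 42, 79, 82 and 46 were lower, with a median of -0.32 at 2 h. Probes of a tag share its RNA and are no replicates. No share of all yeast probes is given beside these probe counts, so they describe the members only. For the 12 tags with 7 or more probes, the mean ratio of the upstream probes minus that of the downstream probes had medians of 0.02, 0.05, -0.05 and -0.03 at the 4 times. At 2 h this difference ran from -0.28 in ARAD1M90300g to 0.27 in ARAD1M90280g, and it was below 0 in 6 of the 12. No common direction along the tags was seen.

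The tags at the start of the series had ratios nearer to 0. ARAD1M90020g, with 10 probes, gave 7.35, 7.44, 7.28 and 7.41 in glucose and 7.35, 7.15, 6.95 and 7.55 with gallic acid, with ratios of 0.01, -0.28, -0.34 and 0.14 and all 10 probes lower at 30 min and at 2 h. ARAD1M90030g gave 6.37, 6.50, 6.45 and 6.21 in glucose and 6.31, 6.38, 6.10 and 6.19 with gallic acid, with ratios of -0.06, -0.13, -0.35 and -0.02, but its single probe was not well above background at 5 h in either arm. ARAD1M90050g gave 6.41, 6.50, 6.46 and 6.52 in glucose and 6.31, 6.21, 6.25 and 6.60 with gallic acid, with ratios of -0.10, -0.30, -0.21 and 0.08. The lowest ratio among these 3 tags was -0.35.

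ARAD1M90060g, with 3 probes, gave 7.65, 7.82, 7.53 and 7.99 in glucose and 7.81, 7.52, 7.29 and 7.95 with gallic acid, with ratios of 0.16, -0.30, -0.24 and -0.04. ARAD1M90070g, with 2 probes, gave 6.65, 6.74, 6.59 and 6.53 in glucose and 6.69, 6.43, 6.45 and 6.76 with gallic acid, with ratios of 0.04, -0.31, -0.14 and 0.24. In ARAD1M90060g both arms were lowest at 2 h and highest at 5 h. ARAD1M90080g, with 1 probe, gave 7.12, 7.21, 7.07 and 6.79 in glucose and 6.60, 6.70, 6.50 and 6.94 with gallic acid, with ratios of -0.52, -0.51, -0.58 and 0.16. It stood apart from its neighbours on both sides by its low ratios at 15 min, 30 min and 2 h. ARAD1M90090g gave 6.99, 7.45, 7.35 and 7.51 in glucose and 6.9996, 7.18, 7.18 and 7.86 with gallic acid, with ratios of 0.01, -0.27, -0.16 and 0.35, and was the member furthest above glucose at 5 h.

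The remaining tags were dim or had ratios near 0. ARAD1M90270g, with 2 probes, gave 6.77, 6.89, 6.86 and 6.95 in glucose and 6.92, 6.70, 6.57 and 7.03 with gallic acid, and ARAD1M90280g, with 10, gave 6.67, 6.71, 6.67 and 6.78 in glucose and 6.71, 6.43, 6.39 and 6.84 with gallic acid. Their ratios of 0.14, -0.19, -0.29 and 0.08 and of 0.04, -0.28, -0.28 and 0.06 were the closest of any pair of neighbours. ARAD1M90280g had probes only from position 1227 to 1927, as read from the probe names. ARAD1M90320g, with 7 probes, gave 6.16, 6.16, 6.06 and 6.34 in glucose and 6.37, 6.14, 6.03 and 6.19 with gallic acid. Its ratios were 0.22, -0.02, -0.03 and -0.15, and only 2 of its probes were above background on all 8 arrays. ARAD1M90340g, with 2 probes, gave 6.36, 6.37, 6.34 and 6.50 in glucose and 6.29, 6.29, 6.13 and 6.47 with gallic acid, with ratios of -0.06, -0.08, -0.21 and -0.04, and both arms were highest at 5 h. Of its 2 probes 1 was above background on all 8 arrays and the other on 0, and the tag's level averages both.

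In 4 members with little signal over background the ratios may be understated, because the offset of 50 used in the background correction draws dim ratios towards 0. ARAD1M90010g was not well above background on any array and was not tested, with levels of 5.91, 6.01, 5.80 and 5.94 in glucose and 5.95, 5.75, 5.87 and 5.90 with gallic acid. No probe of ARAD1M90100g was above background on any array with gallic acid, and its levels were 5.999, 6.05, 6.01 and 6.05 in glucose and 5.999, 6.03, 5.88 and 6.10 with gallic acid. ARAD1M90310g and ARAD1M90330g each had 2 of 10 probes above background on all arrays, with lowest ratios of -0.27 at 15 min and -0.11 at 30 min. Levels of ARAD1M90310g were 6.23, 6.17, 6.18 and 6.02 in glucose and 5.96, 5.99, 5.92 and 6.05 with gallic acid. Those of ARAD1M90330g were 6.04, 6.12, 6.03 and 6.08 in glucose and 6.07, 6.004, 6.001 and 6.07 with gallic acid, and its arms overlapped.

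The time courses of both arms were not parallel. From 15 min to 30 min the level went up for 32 of the 36 members in glucose and for 7 with gallic acid, and for 26 it went up in glucose and down with gallic acid. From 30 min to 2 h it went up for 13 in glucose and for 5 with gallic acid, and down in both arms for 19. No share of the tested tags is given for these earlier steps, so whether the counts are particular to the members is not known. From 2 h to 5 h all 36 were higher at the later harvest with gallic acid (100%, against 59% of the tested tags), with a median of 0.45. In glucose 17 were (47.2%, against 58.2%), with a median of -0.09. For 19 members the level went down in glucose and up with gallic acid (52.8%, against 7.72% of the tested tags), among them 14 of the 19 tags with 1 probe and 5 of the 17 with several. With gallic acid the lowest level was at 2 h in 16 of the 19 single-probe tags and in 15 of the 17 with several probes. The highest level of that arm was at 5 h in 15 and in 12 of them. In glucose the lowest level was at 5 h in 13 of 19 and in 5 of 17. These counts of lowest and highest levels likewise have no share of the tested tags beside them and describe the members only.

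Up to 2 h the arms did not overlap for many members. For 21 of the 36 every array with gallic acid was below every array in glucose over the first 3 harvest times (58.3%, against 2.67% of the tested tags), 16 of the 19 with 1 probe and 5 of the 17 with several. The latter were ARAD1M90290g, ARAD1M90300g, ARAD1M90310g, ARAD1M90340g and ARAD1M90350g. For ARAD1M90340g the margin was narrow, with 6.29 as the highest level with gallic acid and 6.34 as the lowest in glucose. With the 5 h arrays included, this held for 4 members (11.1%, against 0.474%), namely ARAD1M90130g, ARAD1M90140g, ARAD1M90160g and ARAD1M90250g.

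The tests across all tags took each harvest time as a pair of arrays. Over the 4 harvest times, no member passed an adjusted p of 0.05 in limma for gallic acid over glucose (0 of 35 tested, against 0.0818% of all tested tags). The fitted change was below 0 for 32 of the 35, with a median of -0.17 against -0.01 over all tested tags. The members' median was -0.26 without the arrays at 15 min and also without those at 5 h. It was -0.17 without those at 30 min and -0.13 without those at 2 h. The median was thus nearest to 0 with the arrays at 2 h left out. With all 4 harvest times, the fitted change ran from -0.66 in ARAD1M90130g (SE 0.18, limma adjusted p = 0.45) to 0.15 in ARAD1M90200g (SE 0.09, adjusted p = 0.72). The lowest adjusted p was 0.399, for ARAD1M90250g, with a change of -0.26 (SE 0.05). At an unadjusted p under 0.05 there were 14 of 35 members and 530 of all tested tags (8.67%). The residual SD, which here holds how far the ratio varied over time, had a median of 0.204 over the tested members and 0.0768 over all tested tags. It was 0.248 for the 18 tested members with 1 probe and 0.159 for the 17 with several. Of the other tested tags, 6074 had several probes and 3 had 1, and the part of probe number was not tested. A ratio that is low up to 2 h and near 0 at 5 h enters this residual.

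The contrast of the late harvests (2 h and 5 h) with the early ones (15 min and 30 min) called no tag at all (0%, 0 of 35 members), with a lowest adjusted p of 0.914 among the members. Unadjusted, 1 member and 334 of the tested tags passed 0.05. This contrast averages 2 h with 5 h, where the members' ratios were furthest apart. For a difference between any harvest times, with both arms together, 0 of 35 members passed against 45.7% of all tested tags, and unadjusted 3 members against 56.2%. The lowest adjusted p was 0.0591, for ARAD1M90060g. Between 15 min and 30 min 0 of 35 passed, against 14.4% of the tested tags, and between 30 min and 2 h 0 of 35, against 31.5%. Unadjusted, 0 and 1 members passed these 2 steps, against 30.3% and 43.9% of the tested tags.

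Between 2 h and 5 h 7 of 35 members passed unadjusted, against 47.2% of the tested tags. After adjustment 2 of 35 members passed (5.71%), against 37% of the tested tags in either direction and 19.6% for a rise. These were ARAD1M90060g, which rose by 0.56 (SE 0.12, limma adjusted p = 0.0210), and ARAD1M90340g, which rose by 0.25 (SE 0.06, adjusted p = 0.0300). Without the arrays at 15 min the adjusted p was 0.0108 and 0.0460, and without those at 30 min 0.0232 and 0.0498. Both tags were higher at 5 h than at 2 h in each arm. The level of ARAD1M90340g averages 2 probes, 1 of which was above background on 0 arrays. Without the arrays at 15 min 5 members passed, against 38.2% of the tested tags. Bonferroni adjustment left neither call, ARAD1M90060g did not pass with median scaling, and ARAD1M90340g did not pass with 75th percentile scaling or with the brightest probe.

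Neighbouring tags were alike more often than tags taken at large. The likeness of a pair was measured as the root mean square difference of their 4 ratios, and a pair counted as moving together where this was 0.209 or less, the lower quartile of all 630 pairs of members. By this measure 14 of the 35 neighbouring pairs moved together (40%, against 25.1% of all pairs), with a median of 0.226 against 0.326. Measured on the 8 levels after subtracting each tag's mean, 15 of 35 did (42.9%), with a median of 0.163 against 0.218. Tags share their arrays, so these are descriptions without a test. The order is that of the tag numbers, which stands in for the order of the genes.

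**Figure D4:**
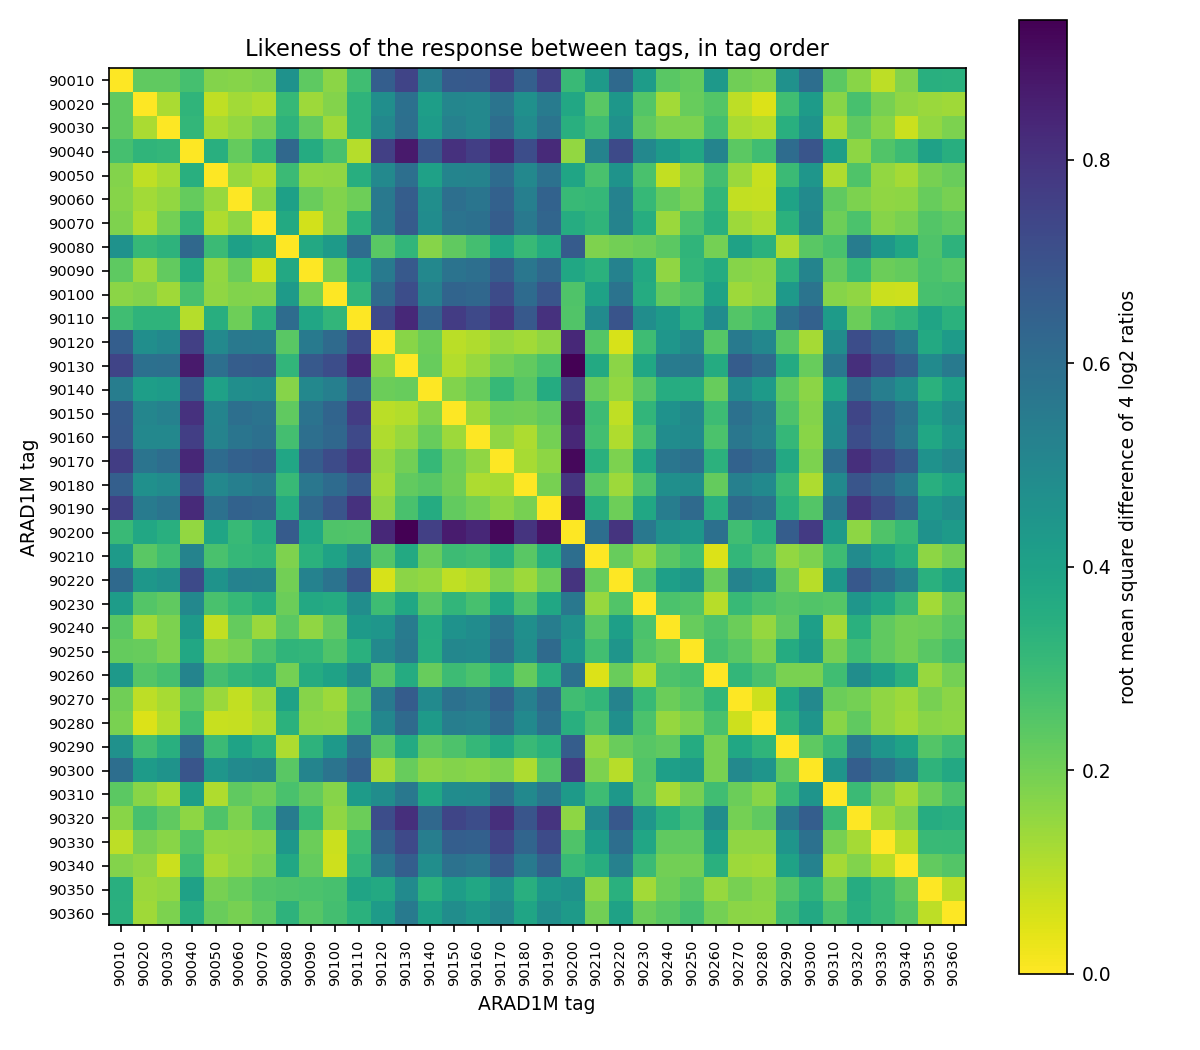
Root mean square difference of the 4 log2 ratios (colour) for each pair of the 36 tags, both axes in tag order. The light square from ARAD1M90120g to ARAD1M90190g is the stretch of 8 single-probe tags. Outside it, ARAD1M90040g, ARAD1M90110g and ARAD1M90200g are dark against the tags of the stretch, with a difference of 0.89 between ARAD1M90190g and ARAD1M90200g.

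By the courses the longest run of such neighbours was the whole stretch from ARAD1M90120g to ARAD1M90190g. By the ratios it was split between ARAD1M90130g and ARAD1M90140g, at 0.218, into a pair and a run of 6. Further runs by the courses were ARAD1M90210g to ARAD1M90230g, ARAD1M90250g with ARAD1M90260g, ARAD1M90270g with ARAD1M90280g, ARAD1M90290g with ARAD1M90300g, and ARAD1M90320g to ARAD1M90350g. By the ratios they were ARAD1M90020g with ARAD1M90030g, ARAD1M90050g to ARAD1M90070g, ARAD1M90090g with ARAD1M90100g, ARAD1M90270g with ARAD1M90280g, ARAD1M90320g to ARAD1M90340g and ARAD1M90350g with ARAD1M90360g. The closest pair was ARAD1M90270g with ARAD1M90280g, at 0.07 for the ratios and 0.04 for the courses.

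The sharpest breaks lay at both ends of the long stretch. ARAD1M90110g and ARAD1M90120g differed by 0.73 in the ratios, ARAD1M90190g and ARAD1M90200g by 0.89, and ARAD1M90200g and ARAD1M90210g by 0.60. ARAD1M90110g and ARAD1M90200g had 10 probes each, and the tags between them 1 each, so breaks in the response coincided with changes in probe number. Among pairs of single-probe tags the median difference was 0.216 for the 13 neighbouring pairs and 0.308 for the 158 others. Among pairs of tags with several probes it was 0.226 for the 11 neighbouring pairs and 0.258 for the 125 others, and for mixed pairs 0.316 for 11 and 0.402 for 312. By the courses, tags with several probes were no nearer as neighbours, at 0.174 against 0.178, while single-probe tags were at 0.123 against 0.194.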

How the data were processed

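Total RNA was measured on 8 single-colour arrays. The authors read spot intensity from the scans with Agilent Feature Extraction 11.5.1.1 and deposited 1 file per array, with deposited flags (other values, 0 or 1) for background and outliers. A second deposited table holds log2 values of the arrays, made by the authors, per the labels, after normexp and quantile normalisation in limma, with its offset and signal column not given in the sources used here. That table was used only as an alternative.

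Median spot and background intensities were corrected with normexp (offset 50) and quantile-normalised in R 4.3.3 with limma 3.58.1, and spots of a probe were averaged. A tag's level was the median over its probes. Tags with at least 1 probe well above background on 2 or more of the 8 arrays were tested, 6112 of 6160 tags and 35 of 36 members. No member spot was saturated (0) or left out as an outlier (0). The number of arrays limits the precision. The additive limma fit held arm and harvest time, with 3 residual degrees of freedom, and the fit of late against early response had 2. Adjusted p is Benjamini-Hochberg over all tested tags. Across all tested tags, arrays of the same harvest time deviated together from their arm's mean (r from 0.749 to 0.909, other pairs at most 0.00502), so harvest time was kept as a block. Subtracting the mean itself lowers r for the other pairs. In the tested members' levels, r between the arms at the same time was 0.874, 0.941, 0.867 and 0.979. Glucose at 15 min and at 2 h was nearer to gallic acid at 5 h, at 0.908 and 0.884. The fits were tested on simulated data. No per-sample column was left unused (0).

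Values in every array are given for the 3 highest and 3 lowest members by mean ratio, members past a threshold, the brightest and the dimmest, and the ends of each run of neighbours, and were added for the other members named. The members, the lists and the split by probe number were chosen with earlier results of these data known. Alternatives changed the background correction, scaling, probe summary, filter, test settings and the harvest times used.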

Additional observations from a re-analysis of the deposited data

Results flagged for a closer look

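In the 72 sets of 4 arrays examined (36 members in each arm), 1 array stood far from the others, where chance alone would mark about 1 set in 20. It was ARAD1M90240g with gallic acid at 5 h, at a level of 7.24 against 6.60 on the nearest array of that arm. The same tag stood at 7.06 in glucose at 5 h.

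From 2 h to 5 h, the level of 19 of the 36 members went down in glucose and up with gallic acid, against 7.72% of the tested tags. The difference between both arms' steps rests on 1 array per arm and time and was not tested.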

How the results depend on the processing

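Gallic acid over glucose called 0 members under all 16 alternatives, and the late minus early response 0 under all 15 that could be fitted. With harvest times left out in turn (both arrays of a time), calls for any harvest time ran from 0 to 4 and for 2 h minus 30 min from 0 to 2. For 5 h minus 2 h, with 15 min or 30 min left out, they ran from 2 to 5. The 5 came without the arrays at 15 min, against 38.2% of the tested tags. The mean ratio over the times kept ran from -0.11 to 0.11 for ARAD1M90040g and from -0.068 to 0.056 for ARAD1M90320g, both negative without the arrays at 15 min. With the processed signal minus its 75th percentile, the median of all tested tags moved to -0.20 at 15 min, -0.10 at 30 min and -0.13 at 2 h. The members' median was then -0.59 over all times and -0.50, -0.91 and -0.97 at 15 min, 30 min and 2 h (-0.30, -0.80 and -0.84 relative to all tested tags). Calls were 1 for any harvest time and 5 for 5 h minus 2 h. By size 4, 10 and 16 members were lower at 15 min, 30 min and 2 h, the last against 3.08% of the tested tags. Single-probe tags were 0.70 below the others at 15 min (a difference of -0.70), and ARAD1M90320g turned to -0.33. With a normexp offset of 0 the median was -0.49 over all times, -0.68 at 30 min and -0.87 at 2 h, and calls were 2 and 6. By size 2, 6 and 18 members were lower, the last against 0.965% of the tested tags, and ARAD1M90320g turned to -0.0012. The deposited log2 table gave 2 calls for any harvest time and 1, 2 and 12 members lower by size, the last against 0.54% of the tested tags. Any harvest time gave 1 call with the mean of the probes, 1 with the brightest probe (which also gave 1 for 30 min minus 15 min) and 3 with a trended and robust prior, under which 5 h minus 2 h gave 5. Bonferroni adjustment left 0 of the 2 calls for 5 h minus 2 h. ARAD1M90060g lost its call with median scaling (0.33), and ARAD1M90340g with the 75th percentile (0.74) and the brightest probe (0.40). The cause of these differences was not tested. For the other counts under alternatives no share of the tested tags is given, so they describe the members only.

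Members below glucose at 30 min stayed between 33 and 35, at 2 h between 33 and 35, and without overlap up to 2 h between 20 and 24 under 7 alternatives. Shares of the tested tags are given above for the main setting only. Neighbouring pairs moving together stayed between 13 and 16 by the ratios and 12 and 16 by the courses. Leaving out probes whose name ends in X was chosen after seeing the data. Leaving out harvest time as a block changed no call. The main limits are 1 array per arm and harvest time, 1 probe for 19 members, and the arms lying in separate rows of the slide.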
